A study of Rattus norvegicus with 24 samples.

Results

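Antigen processing and presentation genes were followed through 6 RNA-seq libraries of rat neural stem cells and their differentiated progeny. The set held 10 genes chosen by symbol: B2m, Tap1, Tap2, Psmb8, Psmb9, Cd74, RT1-Da, RT1-Db1, RT1-Ba and RT1-Bb. Of these, 9 were found among the 12187 genes of the expression table, and RT1-Bb was not analysed here. A filter of at least 1 CPM (reads scaled to library size, as deposited) in at least 2 libraries left 11823 genes for testing, and 6 of the 9 members passed it (B2m, Tap1, Psmb8, Psmb9, Cd74 and RT1-Db1). Tap2, RT1-Da and RT1-Ba did not pass and are given by their values. Because a gene with low counts could pass only through libraries where it was high, counts over the 6 tested members are descriptions of those members.

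The groups were differentiated cells cultured with vitamin C (VC+), differentiated cells cultured without it (VC-) and undifferentiated neural stem cells (D0), all of Sprague-Dawley background, with 2 libraries per group. The study asked how vitamin C changes the differentiation of neural stem cells, and also collected 18 methylation, hydroxymethylation, transcription factor and input samples that were not analysed here. The differentiated libraries of replicate 2 carry a D5 label and those of replicate 1 a D4 label. The labels used here give neither age, dose nor culture medium, nor whether replicates were separate cultures or animals. A p-value here therefore reflects how far these libraries spread, which may be technical.

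Cells cut their own proteins with the proteasome, and the immunoproteasome is a form of it in which Psmb8, Psmb9 and Psmb10 replace the catalytic subunits Psmb5, Psmb6 and Psmb7. The transporter made of Tap1 and Tap2 carries the resulting peptides into the endoplasmic reticulum, where they are loaded on class I molecules, each a heavy chain paired with the light chain B2m. Class II molecules present peptides taken up from outside the cell; in the rat their chains are encoded by the RT1-D and RT1-B genes, and Cd74 is the invariant chain that guards their groove until an endosomal peptide replaces it. Interferons raise the class I genes in most cell types, whereas class II genes are used mainly by professional antigen-presenting cells. In the brain, microglia are the main resident cells that can present antigen.

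Class I and class II genes are known to be controlled through different promoter elements, and the upstream windows are shown for the letters of those elements that each holds. The windows are RefSeq sequences of the GRCr8 build, 250 bases before to 50 bases after each gene's start; all 10 members matched. B2m, Tap1, Tap2 and Psmb8 (4 of 10) held the core of an interferon-stimulated response element, searched on both strands as GAAA, any 2 bases and GAAA. The capitals mark that core, which begins 150, 121, 41 and 4 bases before the start in B2m, Tap1, Tap2 and Psmb8; Tap1 and Psmb8 carry it on the opposite strand and so show its reverse complement.
B2m, chr3:129549135-129549234, plus strand: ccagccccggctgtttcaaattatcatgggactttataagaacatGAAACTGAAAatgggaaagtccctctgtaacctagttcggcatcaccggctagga
Tap1, chr20:4668610-4668709, minus strand: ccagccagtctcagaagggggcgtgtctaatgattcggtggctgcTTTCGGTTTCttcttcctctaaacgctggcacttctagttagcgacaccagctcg
Tap2, chr20:4652283-4652382, minus strand: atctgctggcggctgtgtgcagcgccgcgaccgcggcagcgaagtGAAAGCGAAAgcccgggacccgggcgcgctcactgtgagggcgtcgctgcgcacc
Psmb8, chr20:4656982-4657081, minus strand: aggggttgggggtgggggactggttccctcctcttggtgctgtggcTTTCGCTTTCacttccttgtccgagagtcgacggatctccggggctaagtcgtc

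The class II chains carried another arrangement. RT1-Da, RT1-Db1 and RT1-Ba each held GCAAC, within the X box of class II promoters, followed on the same strand by the Y box CTGATTGG. In each sequence the first run of capitals is GCAAC and the second is the Y box, and 25, 24 and 25 bases lie between them in RT1-Da, RT1-Db1 and RT1-Ba.
RT1-Da, chr20:4515296-4515385, plus strand: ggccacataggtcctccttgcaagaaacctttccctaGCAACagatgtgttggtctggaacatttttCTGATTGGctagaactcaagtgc
RT1-Db1, chr20:4560223-4560312, minus strand: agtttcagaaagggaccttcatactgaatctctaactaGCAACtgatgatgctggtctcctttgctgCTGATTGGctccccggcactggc
RT1-Ba, chr20:4576944-4577033, plus strand: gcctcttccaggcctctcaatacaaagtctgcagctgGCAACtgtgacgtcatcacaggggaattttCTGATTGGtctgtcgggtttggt

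Among all 33469 windows, 3.92% held the interferon core, 3.50% held the Y box and 0.179% held GCAAC within 40 bases upstream of a Y box. The letters searched were chosen with these sequences in view, so the matches describe the windows and are no test. Psmb9 and RT1-Bb held a Y box without an upstream GCAAC, and Cd74 held none of these. Of the members, 8 lie on chromosome 20, with Tap2, Psmb8, Tap1 and Psmb9 as neighbours in that order; B2m lies on chromosome 3 and Cd74 on chromosome 18. Tap1 and Psmb9 are read in opposite directions from a shared upstream stretch, and their windows overlap by 44 bases.

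Before any comparison of groups, the libraries divided by replicate number. All 3 replicate 2 libraries lay above all 3 replicate 1 libraries for 7 of the 9 members, against 24.6% of all genes in the table. Tap2 and RT1-Ba were the exceptions. Every gene in the table reached at least 0.967 CPM in its highest library. Psmb8, Cd74, RT1-Da and RT1-Db1 reached that level in replicate 2 libraries alone, so nothing is read from their part in this count. Depth also divided by replicate number, at 10299321 to 13184601 reads over the listed genes in replicate 2 and 4811094 to 6641721 in replicate 1. A count of 0 therefore allows up to 0.140 to 0.197 CPM in replicate 2 and up to 0.287 to 0.378 CPM in replicate 1 (3 reads, counting error only). In the differentiated cells the replicate number, the D5 or D4 label and the depth cannot be told apart. Values of the members are therefore given library by library, and the vitamin C difference is given within each replicate.

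B2m, the light chain that every class I molecule needs, had 1417 CPM in replicate 2 and 121 CPM in replicate 1 of VC+ cells, 1065 and 126 CPM in VC- cells, and 716 and 112 CPM in D0 cells. Replicate 2 was higher in each group, by 11.8-fold in VC+, 8.43-fold in VC- and 6.37-fold in D0 cells. The replicate 2 libraries were ordered VC+ above VC- above D0, while the 3 replicate 1 libraries lay close together. As group means, B2m had 769 ± 917 CPM in VC+, 596 ± 664 CPM in VC- and 414 ± 427 CPM in D0 cells (SD, n = 2 each), so the spread within each group was larger than any difference between groups.

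Tap1, one chain of the peptide transporter, had 81.6 and 5.93 CPM in replicates 2 and 1 of VC+ cells, 55.4 and 5.23 CPM in VC- cells, and 57.6 and 11.6 CPM in D0 cells. In replicate 1 the D0 library held the highest value, and the ratio to it was 0.511 (95% counting interval 0.364 to 0.713) for VC+ and 0.451 (0.308 to 0.651) for VC- cells. Tap2, its partner chain, was near the detection limit, with 1.31 and 0.574 CPM (28 and 6 reads) in VC+, 0.591 and 0.465 CPM (11 and 4 reads) in VC- and 0.526 and 0.504 CPM (8 and 4 reads) in D0 cells. Tap2 showed the narrowest measured replicate gap of the set, in D0 cells, at, 1.04-fold with a counting interval of 0.279 to 4.73.

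The immunoproteasome subunits showed the widest measured replicate gaps. Psmb8, which replaces Psmb5, had 23.1 and 0.191 CPM in replicates 2 and 1 of VC+ cells, 14.9 and 0.233 CPM in VC- cells, and 5.98 and 0.252 CPM in D0 cells. Each replicate 1 value of Psmb8 rests on 2 reads, against 494, 277 and 91 reads in replicate 2 of VC+, VC- and D0 cells. Psmb9, which replaces Psmb6, had 36.0 and 0.191 CPM in VC+, 19.4 and 1.28 CPM in VC-, and 10.8 and 1.39 CPM in D0 cells. Psmb9 differed 188-fold between the replicates of VC+ cells (51.8 to 1554 by counting), 15.2-fold in VC- and 7.77-fold in D0 cells.

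Class II genes were low throughout. Cd74, the invariant chain, had 5.20 and 0.191 CPM in replicates 2 and 1 of VC+ cells (111 and 2 reads), 1.24 and 0.116 CPM in VC- cells (23 and 1 reads), and 1.05 and 0.252 CPM in D0 cells (16 and 2 reads). RT1-Da, an alpha chain, had 3.42 and 0 CPM in VC+, 0.806 and 0 CPM in VC-, and 0.591 and 0.126 CPM in D0 cells. RT1-Db1, a beta chain, had 2.29, 1.02 and 0.460 CPM in replicate 2 of VC+, VC- and D0 cells and no read in any replicate 1 library. Taking 3 reads per library as the limit, the replicate 2 level of RT1-Db1 was at least 7.99-fold higher in VC+ and at least 2.93-fold higher in VC- cells. In D0 cells it rested on 7 reads, and the lower counting limit of its ratio, 0.751, does not set it above replicate 1. RT1-Ba, the alpha chain of the RT1-B molecule, had 3.79 and 0.383 CPM in VC+, 0.645 and 0.233 CPM in VC-, and 0.131 and 0 CPM in D0 cells.

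**Figure D1:**
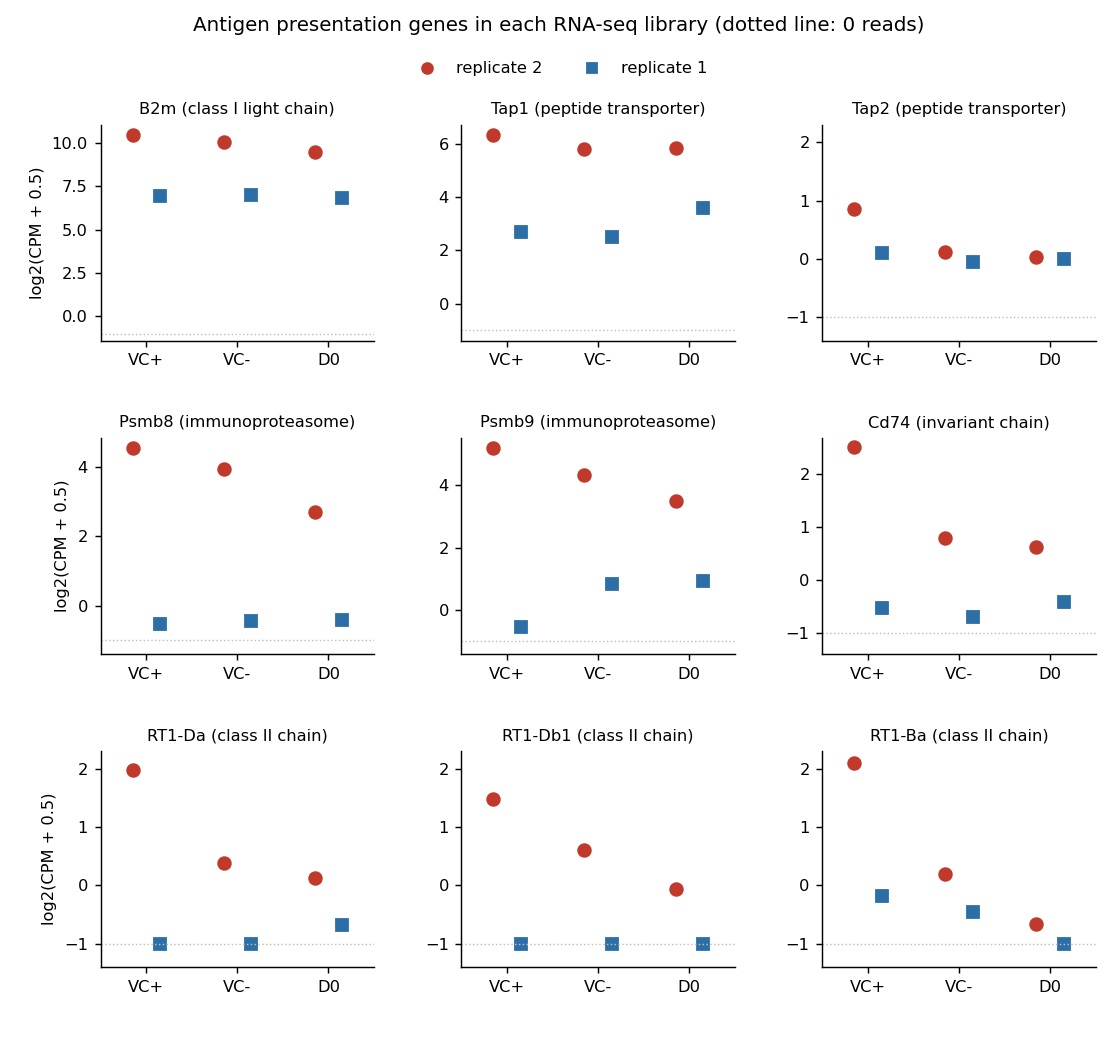
Level of each of the 9 measured genes in each library, as log2(CPM + 0.5) on the vertical axis, with VC+, VC- and D0 cells along the horizontal axis, circles for replicate 2 and squares for replicate 1; the dotted line marks 0 reads. The circle lies above the square in every group of every panel, and in replicate 2 the VC+ circle is the highest of each panel.

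The replicate difference was tested as a term beside the 3 groups (limma on log2(CPM + 0.5), Benjamini-Hochberg over 11823 genes). B2m was higher in replicate 2 by 3.10 ± 0.22 (log2 ± SE, adjusted p 0.00346, limma), Tap1 by 3.07 ± 0.31 (adjusted p 0.00577, limma), Psmb8 by 4.20 ± 0.46 (adjusted p 0.00688, limma), Psmb9 by 3.93 ± 0.64 (adjusted p 0.0169, limma) and RT1-Db1 by 1.68 ± 0.43 (adjusted p 0.0489, limma). The call of RT1-Db1 was lost with pseudocount 2 (log2 0.67, adjusted p 0.0890, limma), and its difference was 7.22 in edgeR and 5.72 in DESeq2, values that depend on how each tool treats its 0 reads in replicate 1. Cd74 had 1.86 ± 0.49 and an adjusted p of 0.0526 in limma, and passed in edgeR (0.0268) and DESeq2 (0.00862) on the recovered reads. Psmb8, Cd74 and RT1-Db1 reached 1 CPM in replicate 2 libraries alone, so they entered the test through the libraries where they were high, and nothing is read from their calls. Limma called 5 of the 6 tested members higher in replicate 2 and 17.4% of all genes tested; edgeR called 6 and 18.0%, and DESeq2 6 and 21.1%. With either VC- library left out, limma called 0 members and also few or no genes at all, 0 of 11575 without VC- replicate 2 and 58 of 11785 without VC- replicate 1. The difference of B2m was then 3.11 on the log2 scale in both fits, with adjusted p of 0.0571 and 0.0557 in limma.

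Markers of other cell types moved with the replicate number as well. The summed level of 20 microglia and macrophage markers was 477 to 1081 CPM in replicate 2 and 41.2 to 46.4 CPM in replicate 1, and all 20 were called higher in replicate 2 by limma. Aif1 and C1qa, which mark microglia, had 93.3 and 80.5 CPM in VC+ replicate 2 and no read in VC+ replicate 1, and Itgam had no read in any replicate 1 library. The 6 dendritic, B and T cell markers summed to 31.4 to 44.7 CPM in replicate 2 and 4.16 to 7.44 CPM in replicate 1, and 5 of the 6 were called higher. The 6 endothelial markers summed to 17.2 to 32.4 CPM in replicate 2 and 3.54 to 5.67 CPM in replicate 1, with 3 called higher. The 7 fibroblast and meningeal markers summed to 3446 to 8787 CPM in replicate 2 and 80.2 to 225 CPM in replicate 1, with 6 called higher. Over all genes tested, limma called 17.4% higher in replicate 2. Markers such as Aif1, C1qa, Itgam, Cd86 and Cdh5 reached 1 CPM in replicate 2 libraries alone. Such markers entered the test through the libraries where they were high, and nothing is read from their calls.

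The neural lists did not follow that split together. Neural stem cell markers summed to 4713 to 5596 CPM in replicate 2 and 3291 to 4130 CPM in replicate 1, with 3 of 10 called higher and 3 lower. Neuron markers summed to 398 to 456 CPM over the 6 libraries, and 3 of 8 were called higher and 1 lower in replicate 2. Oligodendrocyte markers ran the other way, at 802 to 1123 CPM in replicate 2 and 2310 to 12455 CPM in replicate 1, with 9 of 10 called lower in replicate 2, where 7.70% of all genes tested were. The part of these cell types in the levels of the antigen presentation genes was not tested, and in bulk RNA fewer cells of a type and less RNA per cell cannot be told apart.

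Genes of the interferon response, which switch on with the class I pathway in many cells, divided by replicate in the same direction as the members. Of 24 interferon genes in the table, all 24 had every replicate 2 library above every replicate 1 library. That order held for 24.6% of all genes in the table. Limma called 21 of the 23 tested interferon genes higher in replicate 2, against 17.4% of all genes tested. Several, such as Ifit3, Oas1a, Rsad2 and Cxcl10, reached 1 CPM in replicate 2 libraries alone. Nothing is read from their calls or from their part in the count of 24. Mx2, an antiviral GTPase, had 490 and 10.4 CPM in replicates 2 and 1 of VC+, 416 and 9.30 CPM in VC-, and 155 and 13.2 CPM in D0 cells. Irf1, which binds the interferon element, was called higher in replicate 2 (adjusted p 0.00656, limma) and had 44.2 and 8.13 CPM in VC+, 30.6 and 8.25 CPM in VC-, and 14.9 and 3.91 CPM in D0 cells. As with 8 of the 9 members (all except Tap1), the replicate 2 libraries of Irf1 and Mx2 were ordered VC+ above VC- above D0.

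With vitamin C, all 9 members were higher in replicate 2, whereas in replicate 1 4 were higher, 3 lower and 2 had no read in either library. In replicate 2 the VC+ to VC- ratio of CPM was 1.33 for B2m (95% counting interval 1.31 to 1.35), 1.47 for Tap1 (1.36 to 1.59), 1.55 for Psmb8 (1.34 to 1.81) and 1.85 for Psmb9 (1.63 to 2.11). The class II genes had larger ratios in replicate 2, at 4.21 for Cd74 (2.67 to 6.91), 4.24 for RT1-Da (2.41 to 7.96), 2.25 for RT1-Db1 (1.30 to 4.04) and 5.88 for RT1-Ba (3.19 to 11.9). Tap2 had a ratio of 2.22 (1.07 to 4.94). These intervals cover counting error only and compare 2 libraries, not the conditions.

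In replicate 1 the ratio of B2m was 0.955 (0.880 to 1.04) and that of Tap1 1.13 (0.760 to 1.70). Psmb9 had 2 reads in VC+ and 11 in VC- cells, a ratio of 0.150 (0.0161 to 0.686), which is the opposite direction from replicate 2. The intervals of the 2 replicates did not overlap for B2m and Psmb9; for the other 5 members with reads in replicate 1 they overlapped. Of these, Psmb8 rested on 2 against 2 reads (0.823, 0.0597 to 11.4), Cd74 on 2 against 1 (1.65, 0.0857 to 97.1) and RT1-Ba on 4 against 2 (1.65, 0.236 to 18.2). The difference between the replicates in their vitamin C ratio was not tested, as each rests on 1 library per group. At this depth replicate 1 could not show whether the class II genes moved.

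**Figure D2:**
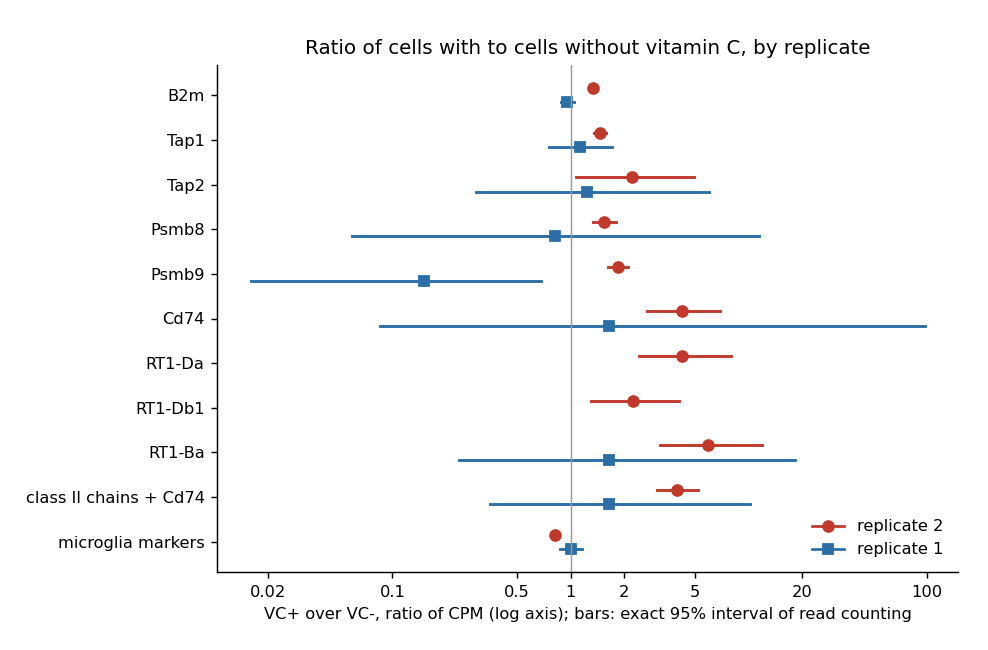
Ratio of CPM in VC+ to VC- cells on a log axis for each member, for the summed class II genes and for summed microglia markers, with replicate 2 as circles and replicate 1 as squares and bars for the exact 95% interval of read counting. In replicate 2 every member lies right of 1 and the microglia sum left of 1, while in replicate 1 the intervals of all members except Psmb9 include 1; RT1-Da and RT1-Db1 had no replicate 1 reads.

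Over both replicates, in the fit without pairing, the vitamin C difference of each tested member was smaller than its SE. Limma gave log2 differences of 0.94 ± 1.27 for Cd74, 0.44 ± 1.19 for RT1-Db1, 0.36 ± 1.72 for Tap1, 0.27 ± 2.37 for Psmb8, 0.17 ± 1.71 for B2m and -0.24 ± 2.29 for Psmb9 (± SE), with an adjusted p of 1.000 for each. Cd74 had a larger value in edgeR (1.94) and DESeq2 (1.97), as had RT1-Db1 (1.10 and 1.16), also with adjusted p of 1.000. Psmb9 turned direction in edgeR (0.79) and DESeq2 (0.80), and each of the 6 had both signs among the fits with 1 library left out. No member was called, where 0% of all genes were (limma; 62 of 11823 genes had an unadjusted p under 0.05, edgeR called 0 genes and DESeq2 6). Since VC+ and VC- libraries share a D label by number, a fit with the replicate as a block was also made. The limma differences stayed the same, while the SE of B2m became 0.27 and that of Cd74 0.61, below its difference of 0.94. Their unadjusted p were then 0.550 and 0.182 (limma with the block). For Cd74 edgeR with the block gave 1.77 (unadjusted p 0.0619) and DESeq2 with the block 1.65 (unadjusted p 0.195). Limma and edgeR again called 0 genes, and DESeq2 with the block called 32 genes, 0 of them members. Of the 9 members, 4 (Tap1, Tap2, Cd74 and RT1-Ba) were higher in both replicates, against 30.0% of all genes in the table.

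Class II reads were summed over Cd74, RT1-Da, RT1-Db1 and RT1-Ba to compare them with microglia markers. In replicate 2 the sum was 314 reads in VC+ and 69 in VC- cells, a CPM ratio of 3.97 (95% counting interval 3.05 to 5.22), whereas summed microglia markers had a ratio of 0.815 (0.799 to 0.831). In replicate 1 the class II sum was 6 reads in VC+ and 3 in VC- cells, a ratio of 1.65 (0.352 to 10.2), beside 1.01 (0.873 to 1.16) for the microglia markers. Of the 20 microglia markers, 6 were higher and 14 lower with vitamin C in replicate 2. The summed class II level and the summed microglia marker level thus differed in direction between the 2 libraries of replicate 2. The widest CPM gaps among the microglia markers were those of C1qa, C1qb and C1qc. These had 80.5, 49.5 and 59.2 CPM in VC+ and 134, 94.9 and 119 CPM in VC- cells of replicate 2. Other markers differed less, such as Csf1r (104 and 115 CPM) and Aif1, which was higher in VC+ cells (93.3 and 85.1 CPM). The dendritic, B and T cell sum was 39.1 CPM in VC+ and 44.7 CPM in VC- cells of replicate 2, and the endothelial sum was 32.4 and 21.2 CPM in these 2 libraries.

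Of the lists described here, astrocyte markers had the largest median difference with vitamin C, and their sums were higher in both replicates. They summed to 6042 and 4171 CPM in replicates 2 and 1 of VC+ cells, 1867 and 1320 CPM in VC- cells, and 1909 and 1028 CPM in D0 cells. Their median log2 difference was 1.27, beside 0.02 over all genes tested, with 0 of 7 called. Most of the VC+ sums came from Aqp4 (2392 and 2322 CPM in replicates 2 and 1) and Gfap (2072 and 684 CPM). With vitamin C, 5 of the 7 markers were higher in both replicates, while Slc1a2 and Aldoc were higher in replicate 2 and lower in replicate 1. The part of astrocyte markers in the vitamin C values of the antigen presentation genes was not tested.

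**Figure D3:**
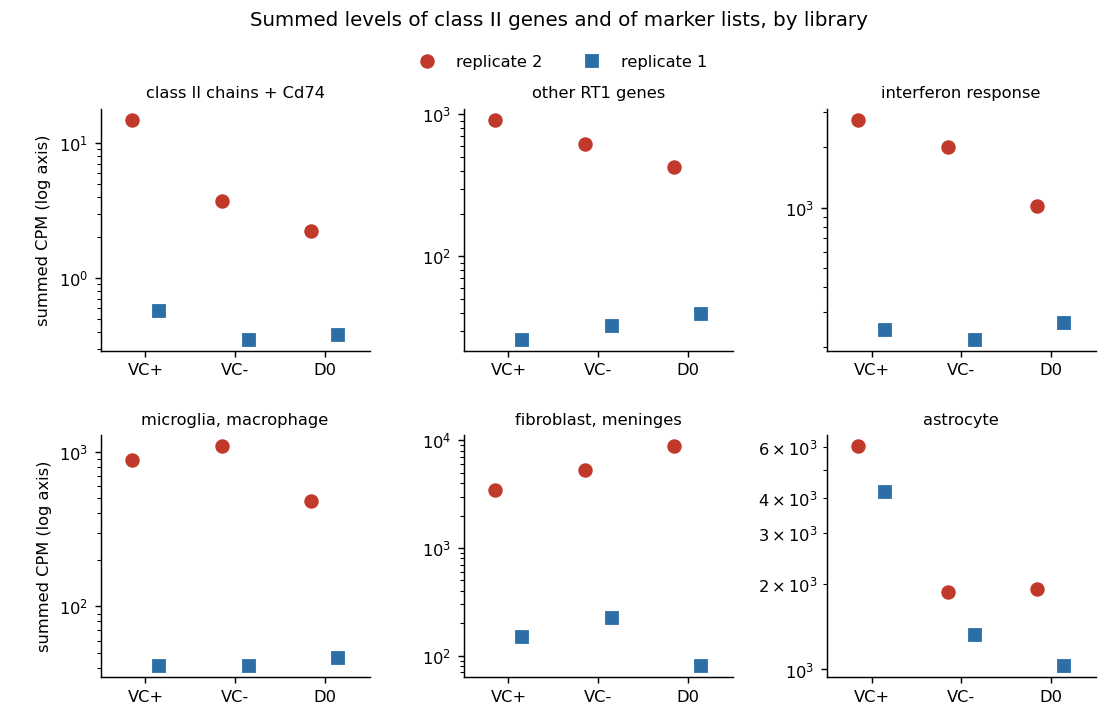
Summed CPM on a log axis of the class II genes with Cd74, other RT1 genes, interferon response genes and markers of microglia, fibroblasts and astrocytes, with VC+, VC- and D0 cells along the horizontal axis, circles for replicate 2 and squares for replicate 1. The class II, other RT1 and interferon panels are ordered VC+ above VC- above D0 in replicate 2, the microglia panel has VC- highest, and the astrocyte panel has VC+ highest in both replicates.

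Compared with stem cells, VC+ cells had higher values of all 9 members in replicate 2 and of 3 in replicate 1, and VC- cells of 8 in replicate 2 and of 2 in replicate 1. For VC+ over D0 in replicate 2, the ratio was 1.98 for B2m (1.94 to 2.02), 1.42 for Tap1 (1.30 to 1.54), 3.87 for Psmb8 (3.09 to 4.89), 3.34 for Psmb9 (2.82 to 3.97) and 4.94 for Cd74 (2.91 to 8.95). RT1-Ba had the largest, 28.9, which rests on 81 against 2 reads (7.74 to 242). In replicate 1 the same ratio was 1.07 for B2m (0.984 to 1.17), and 5 members had a lower CPM in VC+ cells. Of these, Psmb8 and Cd74 had 2 reads in both libraries, and RT1-Da had 0 reads in VC+ against 1 in D0 cells. The others were Tap1, at 0.511 (0.364 to 0.713), and Psmb9, at 0.138 (0.0149 to 0.632) on 2 against 11 reads. In all, 3 members were higher in both replicates in VC+ than in D0 cells, against 28.7% of all genes.

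In replicate 2 the ratio of VC- to D0 was 1.49 for B2m (1.45 to 1.52), 0.962 for Tap1 (0.879 to 1.05), 2.49 for Psmb8 (1.96 to 3.19), 1.80 for Psmb9 (1.49 to 2.18) and 1.18 for Cd74 (0.595 to 2.38). For VC- over D0, 2 members were higher in both replicates, against 28.5% of all genes; B2m was one of them, at 1.12 (1.03 to 1.23) in replicate 1, and RT1-Ba the other. Both comparisons share the D0 libraries. Limma called no member in either, where 0% of genes were called (382 and 507 genes had an unadjusted p under 0.05 for VC- and VC+ against D0; edgeR called 0 in both, and DESeq2 66 and 135).

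Reads of each immunoproteasome subunit were set against those of the subunit it replaces, as reads per 100 reads without correction for length. Psmb8 had 26.1 and 0.209 reads per 100 Psmb5 reads in replicates 2 and 1 of VC+ cells, 18.8 and 0.204 in VC- cells, and 7.58 and 0.317 in D0 cells. Psmb9 had 64.1 and 0.284 reads per 100 Psmb6 reads in VC+, 34.6 and 1.50 in VC-, and 21.0 and 2.81 in D0 cells. The ratios of Psmb8 and Psmb9 divided by replicate number. For the replicate term limma called 0 of 14 constitutive subunits, with 3 at an unadjusted p under 0.05. Over all genes tested limma called 17.4% higher and 7.70% lower in replicate 2. Psmb5 lay between 78.8 and 114 CPM in the 6 libraries.

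Psmb10, the remaining immunoproteasome subunit and a member of the wider pathway list, had a smaller gap between replicates. It had 36.7 and 19.4 CPM in replicates 2 and 1 of VC+ cells, 16.7 and 12.8 CPM in VC- cells, and 8.28 and 10.5 CPM in D0 cells, so that both VC+ libraries lay above the others. Per 100 Psmb7 reads it had 44.6 and 22.5 in VC+, 21.8 and 12.1 in VC-, and 10.1 and 9.38 in D0 cells. The VC+ to VC- ratio of Psmb10 was 2.20 (1.92 to 2.51) in replicate 2 and 1.52 (1.20 to 1.93) in replicate 1. Limma did not call it (log2 0.85 ± 0.42 SE, adjusted p 1.000), nor did the replicate term (0.32 ± 0.28, adjusted p 0.429, limma), and with the replicate block its unadjusted p was 0.0589 in limma.

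**Figure D4:**
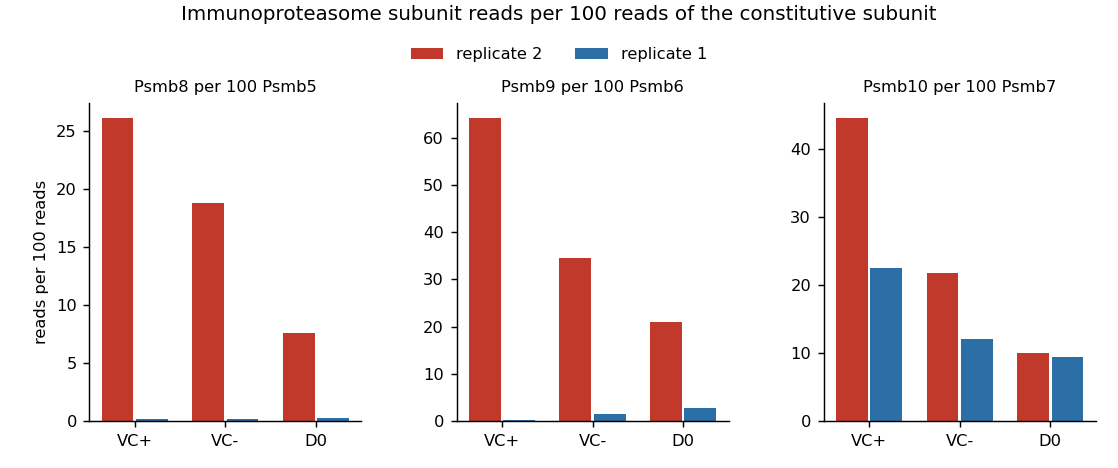
Reads of Psmb8, Psmb9 and Psmb10 per 100 reads of the constitutive subunit that each replaces, with VC+, VC- and D0 cells along the horizontal axis and bars for replicate 2 and replicate 1. The replicate 1 bars of Psmb8 and Psmb9 are near 0 in all groups, while Psmb10 has 22.5 in VC+, 12.1 in VC- and 9.38 in D0 cells of replicate 1.

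The wider pathway was followed through 24 further genes in the table, of 30 listed. For the replicate term limma called 16 of them higher and 1 lower in replicate 2, where 17.4% of all genes were called higher and 7.70% lower. Ctss, Irf8 and Hfe reached 1 CPM in replicate 2 libraries alone, and nothing is read from any call of them. Ctsl and Lgmn, endosomal proteases that process class II cargo, had 267 and 214 CPM in VC+ replicate 2 and 84.6 and 55.1 CPM in VC+ replicate 1. Ctss, the protease that trims the invariant chain, had 47.2, 51.7 and 41.6 CPM in replicate 2 of VC+, VC- and D0 cells and at most 0.233 CPM in replicate 1; it was chosen after its values were seen. Rfx5, a subunit of the complex that binds the X box, was the gene called lower, with 60.3 and 102 CPM in replicates 2 and 1 of VC+, 72.5 and 90.6 CPM in VC-, and 84.5 and 153 CPM in D0 cells (log2 -0.64 ± 0.16 SE, adjusted p 0.0435, limma). Rfxap and Rfxank, its partners, were not called, and Canx and Calr, chaperones of the endoplasmic reticulum, were not either.

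With vitamin C, 15 of the 24 pathway genes were higher in both replicates and 3 lower in both, against 30.0% and 26.1% of all genes, with a median log2 difference of 0.35 beside 0.02 over all genes tested; 0 were called. The 4 named next were higher in both and were chosen after their values were seen. Tapbpl, a peptide editor of class I molecules, had 57.0 and 16.3 CPM in replicates 2 and 1 of VC+ and 26.4 and 6.63 CPM in VC- cells, ratios of 2.16 (1.94 to 2.40) and 2.45 (1.81 to 3.37). Mr1, a class I-like molecule that presents vitamin B metabolites, had 88.9 and 4.21 CPM in VC+ and 40.3 and 1.05 CPM in VC- cells, ratios of 2.20 (2.02 to 2.40) and 4.02 (1.94 to 9.37). Tapbp, the bridge between the transporter and class I molecules, had ratios of 1.33 (1.23 to 1.43) and 1.36 (1.05 to 1.78). Ifi30, a thiol reductase of the endosome, had 39.3 and 20.7 CPM in VC+ and 28.9 and 8.02 CPM in VC- cells. Under the replicate block Tapbpl had a log2 difference of 1.17 ± 0.23 SE and an unadjusted p of 0.00414, with an adjusted p of 1.000 in limma. In the windows upstream of the 24 genes, 7 held the interferon core, among them Tapbp and Psmb10, and 1, RT1-DOa, held the class II arrangement, and its own level was not analysed here.

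**Figure D5:**
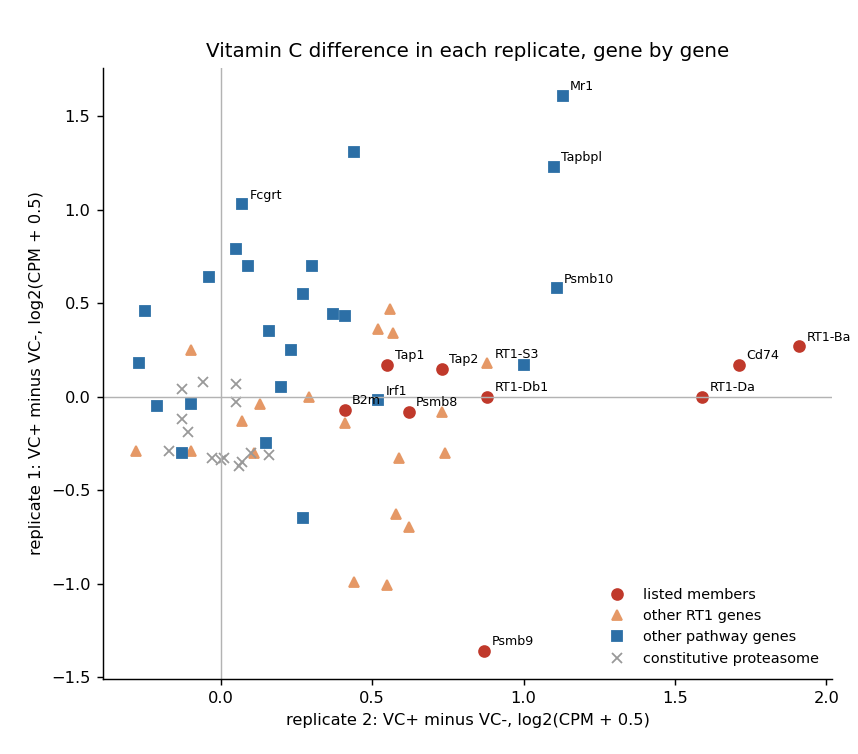
Difference of VC+ minus VC- cells in log2(CPM + 0.5) for each gene, with replicate 2 on the horizontal and replicate 1 on the vertical axis; circles are the members, triangles other RT1 genes, squares other pathway genes and crosses constitutive proteasome subunits. All 9 members lie right of 0 on the replicate 2 axis, with Psmb9 far below 0 in replicate 1, while Mr1, Tapbpl and Psmb10 lie above 0 on both axes.

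The class I heavy chains of the rat are RT1 genes with many near-identical copies, so reads could be split among them by the authors' counting and each value is uncertain. Of 19 other RT1 genes in the table, 18 were tested and 15 were called higher in replicate 2 by limma, against 17.4% of all genes tested. Several, such as RT1-A3 and RT1-CE10, reached 1 CPM in replicate 2 libraries alone, and nothing is read from their calls. The 19 genes summed to 907 and 25.9 CPM in replicates 2 and 1 of VC+ cells, 617 and 32.6 CPM in VC- cells, and 425 and 39.5 CPM in D0 cells. Replicate 2 was thus ordered VC+ above VC- above D0 and replicate 1 in the reverse order. RT1-A2, a classical class I heavy chain, had 214 and 2.39 CPM in VC+, 158 and 5.23 CPM in VC-, and 101 and 3.40 CPM in D0 cells. Its VC+ to VC- ratio was 1.36 (1.30 to 1.42) in replicate 2 and 0.457 (0.269 to 0.762) in replicate 1, where it rests on 25 against 45 reads.

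Of the 19, 11 were, as B2m, Psmb8 and Psmb9 were, higher in CPM with vitamin C in replicate 2 and lower in replicate 1, against 22.2% of all genes in the table. In replicate 1, 1 read stands for 0.0957 CPM in VC+ and 0.116 CPM in VC- cells, so equal reads give a lower CPM in VC+. Psmb8 had 2 reads in each, RT1-CE4 had 0.191 and 0.233 CPM, and RT1-CE2 had 0 and 0.116 CPM in VC+ and VC- cells. The count therefore describes the CPM values, and no shared pattern is read from it. RT1-S3, with 219, 118 and 58.9 CPM in replicate 2 of VC+, VC- and D0 cells, was higher in both replicates, at 1.85 (1.76 to 1.94) in replicate 2 and 1.15 (0.763 to 1.74) in replicate 1, where 60 reads in VC+ stood against 43 in VC- cells.

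Genes whose profiles over the 6 libraries were most like those of B2m, Psmb8 and Cd74 were sought among 9813 non-member genes of at least 5 CPM on average, by the root mean square distance of log2(CPM + 0.5) after centring each gene. For B2m they were Chrdl1 (0.20), B4galt1 (0.21) and Stard8 (0.22). For Psmb8 they included RT1-S3 (0.17) and Oas2 (0.17), an interferon-induced enzyme. For Cd74 they were Grin2c (0.29), Tmem123 (0.33) and Optn (0.33). Oas2 had 18.0, 14.1 and 4.27 CPM in replicate 2 of VC+, VC- and D0 cells and no read in replicate 1, against 23.1, 14.9 and 5.98 CPM of Psmb8 in the same 3 libraries. The points of each profile share libraries and depth, so the distances are descriptions.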

How the data were processed

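RNA-seq libraries were made with a TruSeq RNA kit and sequenced on a HiSeq2000 as 75 bp single-end reads, per the labels. The authors deposited 1 table of CPM values. The submitters' processing notes list, without roles, the rn5 build, deepTools 2.4.2, HOMER 4.9.1, Bowtie2 2.1.0, CASAVA 1.7, edgeR 3.12.1 and STAR 2.5.1; the read counter, annotation, strand setting and gene filter are not given in the sources used here. Within a library, 100% of the 12187 deposited CPM values were whole multiples of the same step (relative tolerance 1e-06), which gave back whole read counts; these made up 60.2% to 67.7% of the authors' scaling total.

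A minimum of 1 CPM in 2 libraries left 11823 genes, tested with limma 3.58.1 (trend, two-sided, R 4.3.3) on log2(CPM + 0.5), a log2 scale computed here from the deposited CPM that understates changes of low genes, with 3 groups in 1 fit and Benjamini-Hochberg adjusted p under 0.05. The replicate number was tested in a fit with group. Ratio intervals are exact binomial 95% intervals of the recovered counts and cover counting error only. The code was tested on simulated counts. Alternatives were pseudocounts of 0.1 and 2, no filter, a filter at 5 CPM, median-of-ratios and TMM scaling, no trend, count tests on recovered reads (DESeq2 1.42.0 and edgeR 4.0.16), the replicate block, and leaving out each library.

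VC+ and VC- libraries of 1 number share a D label, which pairs them; deviations from group means correlated at 0.914 across 11823 genes, which are not independent. With D0 only the number is shared. Members and lists were chosen with earlier results of these data known. Named genes were all members, up to 4 called genes of highest mean CPM per list, every other RT1 gene, a panel with Irf1, Psmb5, Psmb10, Aif1 and C1qa, and for B2m, Psmb8 and Cd74 the 3 genes of nearest profile; Itgam, Canx, Calr, Rfxap, Rfxank and those marked in the text were picked with their values in view. Some genes under this rule are left out of the text. No batch is named in the labels.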

Additional observations from a re-analysis of the deposited data

How the results depend on the processing

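For the vitamin C comparison and both comparisons with D0 cells, the count of members called was 0 under every alternative run, including limma, edgeR and DESeq2 with the replicate block for VC+ against VC-. For pairing with D0 cells, where only the number is shared (correlation of deviations 0.730 for VC- and 0.688 for VC+), limma with the replicate block also called 0 members. The number of members called higher in replicate 2 was 0 to 6 with 1 library left out, and 0 without VC- replicate 2 or VC- replicate 1, where limma called 0 and 58 of all genes. Over the 6 leave-outs the difference was 2.87 to 3.31 for B2m, 2.78 to 3.48 for Tap1 and 3.75 to 4.74 for Psmb8; of the 6 tested members, 0 changed direction. With pseudocount 2, 4 members were called, without RT1-Db1. RT1-Db1 gave no value without VC+ replicate 2 or VC- replicate 2, where it failed the filter.

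Some fitted directions turned, and the cause was not tested. The vitamin C difference of Psmb9 was 0.12 with pseudocount 2, 0.79 in edgeR, 0.80 in DESeq2 and 0.18 in edgeR with the block. Against D0 cells, Cd74 in VC- was 0.10 in edgeR and 0.07 in DESeq2, Tap1 in VC+ was 0.36 and 0.34, and Psmb9 in VC+ was -0.31 with pseudocount 0.1. With 1 library left out, the replicate difference enters the group comparison. The log2 range for VC+ minus VC- was then -1.60 to 1.95 for B2m, -1.48 to 2.20 for Tap1, -2.28 to 2.82 for Psmb8, -3.11 to 2.62 for Psmb9, -0.58 to 2.46 for Cd74 and -0.36 to 1.68 for RT1-Db1. For VC- minus D0 it was -1.17 to 1.91, -2.21 to 1.08, -1.59 to 2.80, -1.37 to 2.11, -0.81 to 0.68 and -0.14 to 1.13 for the same genes in that order. For VC+ minus D0 it was -1.23 to 2.32, -2.04 to 1.63, -1.67 to 3.42, -2.74 to 2.98 and -0.64 to 2.40 for B2m, Tap1, Psmb8, Psmb9 and Cd74.

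Such fits give the remaining library of a group the spread of the other groups. Replicate 1 held 0 to 4 reads of each class II gene, which limits what it can show.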
